A study of Mus musculus with 16 samples.

Results

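*Malat1*, *Neat1*, *Miat*, *Gm42418* and *Gm26917* are 5 noncoding or rRNA-like genes of the 32285 genes counted in nuclei from the microdissected mouse dentate gyrus (DG). They were looked up by symbol in all 8 libraries, and each symbol was found in every one. They had been picked because their shares of the RNA molecules in these same libraries were known to vary between cell classes, between barcodes rich and poor in RNA, and between genotypes. Those shares are therefore given as descriptions without tests, and tests of the members are kept for sex and for chromatin accessibility, which played no part in the choice. Genotype tests are also given for lists of related genes. Those lists were chosen with earlier results of these data known, so their p-values do not stand apart from that choice.

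The study asked how the V321L missense mutation in *Nrg1*, which encodes the growth factor neuregulin 1, affects the subtypes of DG granule cells (GCs). DGs were dissected from 4 WT (VV) mice and 4 mice homozygous for V321L (LL), with 2 females and 2 males per genotype, called F1, F2, M1 and M2. The mutation was present in all cells throughout life, and no treatment was given. The study gives an age range for all its mice together, and no age for these mice alone. Nuclei from frozen tissue went through the 10x Multiome assay, which reads RNA and open chromatin (ATAC) from the same nucleus, and each transcript molecule was counted once by its unique molecular identifier (UMI).

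*Malat1* is a very abundant long noncoding RNA that stays in the nucleus and gathers at nuclear speckles, where splicing factors are stored. Its 3′ end is made by RNase P, which cuts off a tRNA-like piece, and is protected by a triple helix. *Neat1*, its neighbour on the chromosome, is the RNA scaffold of paraspeckles. *Miat*, also known as Gomafu, is a nuclear RNA of neurons that binds splicing factors. *Gm42418* is listed by RefSeq under the name *Rn18s-rs5*, a pseudogene related to small-subunit rRNA, and *Gm26917* is annotated just beside it. Because rRNA makes up most of the RNA of a cell and has no long poly(A) tail, rows of this kind can collect rRNA reads that escape poly(A) selection.

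In mm10, the genome build of the files, *Malat1* (ENSMUSG00000092341) lies on the minus strand of chromosome 19, where RefSeq gives it the span chr19:5795690-5802672. *Neat1* (ENSMUSG00000092274) lies at chr19:5824708-5845480, and *Miat* (ENSMUSG00000097767) at chr5:112213228-112228948. *Rn18s-rs5*, the RefSeq entry of *Gm42418* (ENSMUSG00000098178), spans chr17:39846354-39848202. *Gm26917* (ENSMUSG00000097971) has start sites from 39843013 to 39845074 on chromosome 17 in the files and no RefSeq entry in the table used here. A further noncoding gene, *AY036118*, begins inside *Rn18s-rs5* on the RefSeq map (chr17:39848112-39898385), so that reads of *Gm42418* and *AY036118* may be split uncertainly between them.

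RefSeq promoter sequences on GRCm38.p6, the assembly that mm10 names, were on hand for *Malat1* and *Miat*. They are shown because accessibility at the starts of these genes is reported further on. Each runs 5′ to 3′ from 250 bases before the start to 50 bases after it, with the transcribed bases in capitals. *Malat1* is at chr19:5802623-5802922 and *Miat* at chr5:112228899-112229198, both on the minus strand.
Malat1: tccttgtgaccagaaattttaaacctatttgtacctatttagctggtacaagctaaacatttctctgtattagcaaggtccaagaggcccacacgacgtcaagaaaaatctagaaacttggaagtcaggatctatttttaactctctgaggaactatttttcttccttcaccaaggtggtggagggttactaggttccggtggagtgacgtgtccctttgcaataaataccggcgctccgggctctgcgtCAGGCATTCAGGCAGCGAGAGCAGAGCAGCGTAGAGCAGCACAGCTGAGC
Miat: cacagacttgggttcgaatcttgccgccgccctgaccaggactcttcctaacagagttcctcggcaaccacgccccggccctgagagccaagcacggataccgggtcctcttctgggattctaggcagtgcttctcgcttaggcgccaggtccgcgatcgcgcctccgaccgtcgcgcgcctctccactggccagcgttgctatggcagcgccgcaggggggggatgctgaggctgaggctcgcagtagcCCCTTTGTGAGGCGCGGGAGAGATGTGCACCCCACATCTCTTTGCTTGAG
The *Malat1* window held 47.0% G and C and the *Miat* window 64.3%, against a median of 52.7% over 32817 RefSeq promoters of the same length. Both strands were searched for the TATA box TATAAA (found in 13.6% of all promoters), the CCAAT box (37.4%), the Sp1 motif GGGCGG (35.6%), the E-box CACGTG (7.15%) and the cAMP response element TGACGTCA (1.79%). The *Malat1* window held none of them. The *Miat* window held GGGCGG once, on the opposite strand at position 27 of the window.

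The RNA libraries held from 4326426 to 14624265 UMIs in WT and from 15505354 to 23582057 in V321L, so that every V321L library was deeper than every WT library. Limits on UMIs, genes and mitochondrial share cut V321L barcodes over 500 UMIs more than WT ones. In WT F1, F2, M1 and M2 they kept 2400 of 2500, 5793 of 5839, 2357 of 2418 and 3059 of 3182. In V321L they kept 3039 of 5713, 2729 of 3580, 2103 of 3532 and 2417 of 6729. After all filters, 16406 nuclei remained, 9484 of WT and 6922 of V321L, of which 161 barcodes occurred in more than 1 library. Nuclei were put into classes by UMIs of marker genes, and 8746 nuclei met no gate. A gate took 31.2 to 38.8% of nuclei in WT libraries and 57.9 to 63.8% in V321L libraries. The part of these unlike selections in the genotype differences was not tested. The 3529 GCs had all 8 GC markers in every mouse, with *Prox1*, the transcription factor that defines GC identity, at 325 to 386 counts per 1000000 UMIs (CPM) in WT and 234 to 282 in V321L. The gates used these same marker lists, so neither these levels nor the marker sums that follow test the identity of the class. The summed markers took 0.460 to 0.507% of GC UMIs in WT and 0.371 to 0.410% in V321L. Markers of other classes in GCs summed to 0.0742 to 0.0852% and 0.0578 to 0.0667% for astrocytes or radial glia, 0.05 to 0.0597% and 0.0339 to 0.0367% for other excitatory neurons, and 0.0370 to 0.0441% and 0.0398 to 0.0446% for oligodendrocytes. The largest of such sums was that of GABAergic neuron markers, 0.1275 to 0.1312% in WT and 0.095 to 0.1156% in V321L. Microglia markers gave the smallest, 0.00839 to 0.0215% and 0.00666 to 0.00948%. WT and V321L GCs also differed in general properties. Their median UMIs per nucleus ran from 1090 to 1928 in WT and from 3187 to 4411 in V321L, mitochondrial transcripts took 0.170 to 0.261% and 0.471 to 1.2% of UMIs, and ribosomal protein transcripts took 0.0971 to 0.167% and 0.918 to 1.80%. None of these ranges overlapped. The members are given at matched depth below, the part of mitochondrial and ribosomal protein shares in the genotype differences was not tested, and a library batch shared by the mice of a genotype cannot be told apart from genotype. Clustered without the 5 genes, GCs of the genotypes fell mostly into different clusters. The cluster with most WT GCs held 573 of them and 67 of V321L, and that with most V321L GCs held 1042 of them and 2 of WT.

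*Gm42418* was the most abundant gene in the RNA-poor barcodes of WT libraries and was low everywhere in V321L libraries. Barcodes with 1 to 20 UMIs, which in such assays mostly come from droplets without a nucleus, gave it 11.6, 7.65, 16.1 and 12.6% of UMIs in WT F1, F2, M1 and M2. In V321L the same range gave 0.0430, 0.150, 0.368 and 0.0507%. The highest V321L share lay below the lowest WT share, and the means of 12 and 0.153% differed 78.3-fold, or 147-fold without V321L M1 and 176-fold in barcodes of 1 to 10 UMIs. In barcodes with 21 to 200 UMIs the shares were 8.99, 8.17, 9.22 and 8.07% in WT and 0.256, 0.171, 0.287 and 0.259% in V321L. In barcodes with over 500 UMIs they were 0.668, 0.402, 1.06 and 0.715% in WT and 0.0441, 0.0295, 0.0430 and 0.0463% in V321L. The genotype groups stayed apart in every range, and the ratio of means narrowed from 78.3 to 35.4, 26.1 and 17.4 as the barcodes grew richer. The same UMI limits were used in all libraries, although V321L libraries were deeper. They had 258669 to 389742 barcodes with a UMI, against 145440 to 250742 in WT. A range may therefore hold unlike droplets in WT and V321L. The part of this in the genotype ratios by range, for every gene, was not tested. By UMI count, *Gm42418* ranked first of all genes in the 3 lower ranges of every WT library and between rank 4 and rank 26 above 500 UMIs, whereas in V321L it ranked 15 to 343 in the lowest range and 273 to 499 in the highest.

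Within WT, the share of *Gm42418* was 15.2 to 19.0 times higher in barcodes of 1 to 20 UMIs than in those over 500. That ratio was above the ratios of 95.3 to 97.1% of the 379 to 1072 genes with at least 100 UMIs in both ranges. In V321L the same ratio was 0.974 in F1, 5.09 in F2, 8.57 in M1 and 1.10 in M2, so V321L libraries differed among themselves in this respect. They also differed in depth, with 22101446, 18193620, 15505354 and 23582057 UMIs in F1, F2, M1 and M2. The part of depth in these ratios was not tested. Other transcripts shifted with barcode size too. Mitochondrial transcripts took means of 7.05% of UMIs in WT and 12.2% in V321L in the lowest range, and 0.275 and 3.86% over 500 UMIs, and ribosomal protein transcripts took 0.971 and 8.64%, then 0.132 and 2.13%. Thus the RNA-poor barcodes of WT were rich in the rRNA-like gene and those of V321L in ribosomal protein transcripts. The part of either in the differences within nuclei was not tested.

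**Figure D1:**
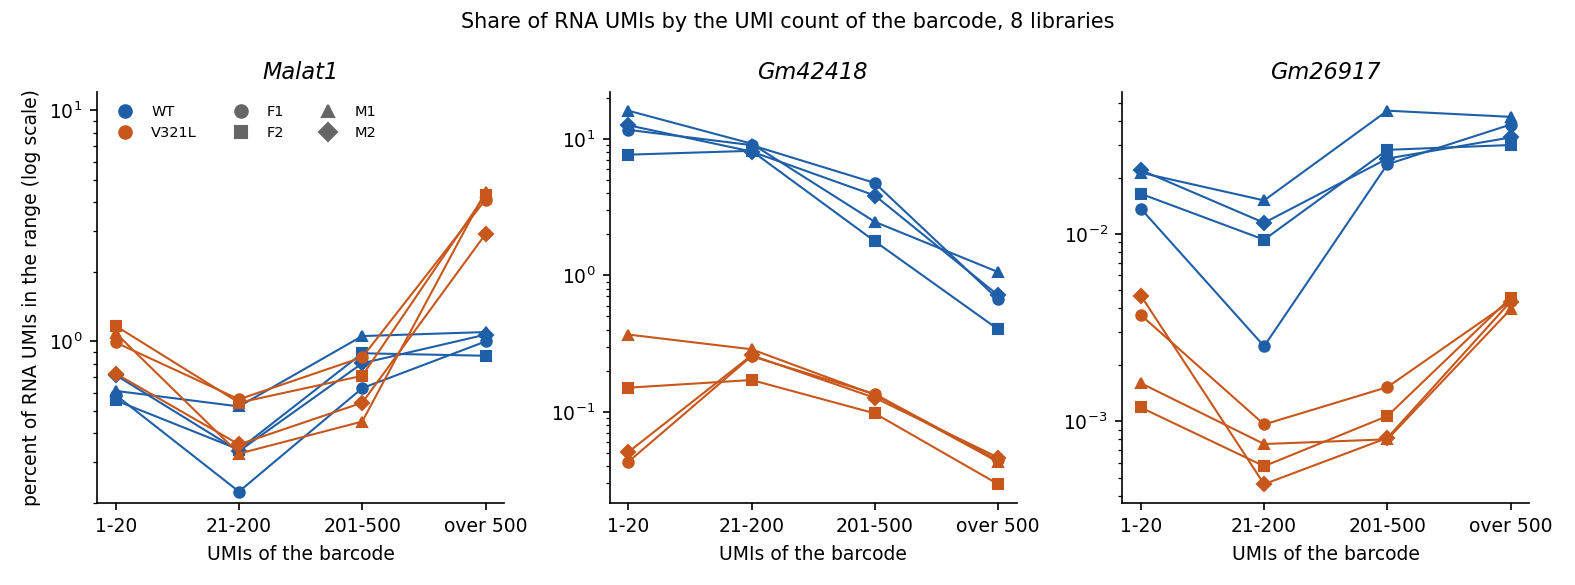
Percent of RNA UMIs from *Malat1*, *Gm42418* and *Gm26917* (vertical, log scale) in barcodes with 1 to 20, 21 to 200, over 200 to 500 and over 500 UMIs (horizontal), one line per library, blue for WT and orange for V321L, with a symbol for each mouse. *Gm42418* falls from 7.65 to 16.1% to 0.402 to 1.06% along the WT lines and stays at or below 0.368% in V321L, whereas *Malat1* reaches 2.91 to 4.45% in the richest V321L barcodes.

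*Malat1* ran the other way. In barcodes with over 500 UMIs it took 0.999, 0.866, 1.10 and 1.07% of UMIs in WT F1, F2, M1 and M2, and 4.11, 4.31, 4.45 and 2.91% in V321L, where it was the most abundant gene in all 4 libraries. In the lowest range it took 0.586, 0.555, 0.610 and 0.714% in WT and 0.989, 1.17, 1.09 and 0.725% in V321L. The genotypes did not overlap in either range, with V321L means 3.91 and 1.61 times those of WT, but they overlapped when the lowest range was taken as 1 to 10 UMIs. They overlapped in the middle ranges, at 0.224 to 0.523% in WT and 0.327 to 0.561% in V321L for 21 to 200 UMIs, and at 0.627 to 1.05% and 0.450 to 0.853% for over 200 and up to 500 UMIs. Set against barcodes over 500 UMIs, those of 1 to 20 held a *Malat1* share 0.556 to 0.668 times as high in WT and 0.241 to 0.271 times as high in V321L. In V321L 2.19 to 8.24% of the genes with at least 100 UMIs in both ranges had a lower ratio, and in WT 33.8 to 47.2% did.

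The other rRNA-like rows were not copies of *Gm42418* in their distribution. *Gm26917* took 0.0136 to 0.0219% of UMIs in the lowest range of WT and 0.0298 to 0.0421% over 500 UMIs, so that it was higher where *Gm42418* was lower. The ratio of *Gm42418* to *Gm26917* UMIs went from between 468 and 854 in WT barcodes of 1 to 20 UMIs to between 13.5 and 25.1 in those over 500. In V321L *Gm26917* took 0.00119 to 0.00469% and 0.00397 to 0.00456%, below WT in both ranges. *AY036118*, in contrast, stayed in a narrow ratio to *Gm42418* in WT, with 3.19 to 4.83 *Gm42418* UMIs for each *AY036118* UMI over all ranges and libraries. In V321L that ratio was 0.609 to 1.88, and the WT and V321L ranges did not overlap.

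*Neat1* and *Miat* were rare in every range. *Neat1* took 0.00101 to 0.00158% of UMIs in WT barcodes over 500 UMIs and 0.00439 to 0.00710% in V321L, and *Miat* took 0.00433 to 0.0109% and 0.0121 to 0.0176%. Both groups of values were apart between genotypes. For these rare genes the lower ranges held between 1 and 107 UMIs a library, and the genotypes overlapped for both genes in the 2 middle ranges.

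Among GCs, *Malat1* and *Miat* were higher in V321L, and the rRNA-like rows were lower. *Malat1* stood at 9683, 8052, 10730 and 9740 CPM in WT F1, F2, M1 and M2 and at 42100, 42240, 49180 and 35940 CPM in V321L. *Miat* stood at 58.8, 42.2, 133 and 57.2 CPM in WT and at 158, 191, 147 and 174 CPM in V321L. No V321L mouse overlapped a WT mouse for either gene, although for *Miat* WT M1 came close to V321L M1. As shares of GC UMIs the *Malat1* means were 0.955% ± 0.111 for WT and 4.24% ± 0.541 for V321L (SD, n = 4 each), and those of *Miat* were 0.00729% ± 0.00410 and 0.0168% ± 0.00190 (SD, n = 4 each).

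*Gm42418* stood at 5789, 3573, 9614 and 5142 CPM in WT GCs and at 313, 229, 289 and 280 CPM in V321L GCs. *Gm26917* stood at 309, 235, 370 and 234 CPM in WT and at 40.6, 35.3, 24.8 and 47.8 CPM in V321L. Both were lower in all 4 V321L mice than in any WT mouse. WT M1, the shallowest library, had the highest level of both. For GCs and for the barcode ranges above, the share of all genes whose genotype groups were apart in this way is not given here. By a test, 63% of the genes tested in GCs were called by genotype, as given below. *Neat1* had 2, 1, 0 and 3 UMIs over all WT GCs and 7, 10, 7 and 8 over all V321L GCs, too few for a fold change, and the 0 of 329936 UMIs in WT M1 allows a share of up to 0.000909% by counting error alone.

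Scaled by TMM across all genes, which discounts a few very abundant genes, the log2 difference of V321L from WT in GCs was 1.76 (SE 0.14) for *Malat1*, 0.97 (SE 0.21) for *Miat*, -4.81 (SE 0.22) for *Gm42418* and -3.33 (SE 0.18) for *Gm26917*. Since the members had been chosen on this contrast, no test is read for them. Of the 9850 genes tested by edgeR's quasi-likelihood method 63% were called at an adjusted p of 0.05, 35.4% higher and 27.6% lower in V321L. The median difference over all genes was 0.15, and with plain library sizes it was 0.57, a shift against which these values should be read. With that scaling 4982 genes were higher and 1455 lower, against 3485 and 2717 by TMM, and each member kept its direction.

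The difference was also present at matched depth. In GCs with over 2000 and up to 4000 UMIs, a range that all 8 mice filled, *Malat1* took 0.823 to 1.12% of UMIs in WT and 3.51 to 4.50% in V321L, and *Gm42418* took 0.340 to 0.758% and 0.0206 to 0.0300%. From nuclei of up to 1000 UMIs to those over 4000, the WT mean of *Malat1* moved only between 0.880 and 0.976%. For *Gm42418* the WT mean went from 0.639% in the shallowest nuclei to 0.519% in those of the matched range, less than the spread between mice (SD 0.296 and 0.176). *Miat* nearly met between genotypes in the matched range, at 0.00350 to 0.0127% in WT and 0.0123 to 0.0167% in V321L. The groups overlapped there.

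**Figure D2:**
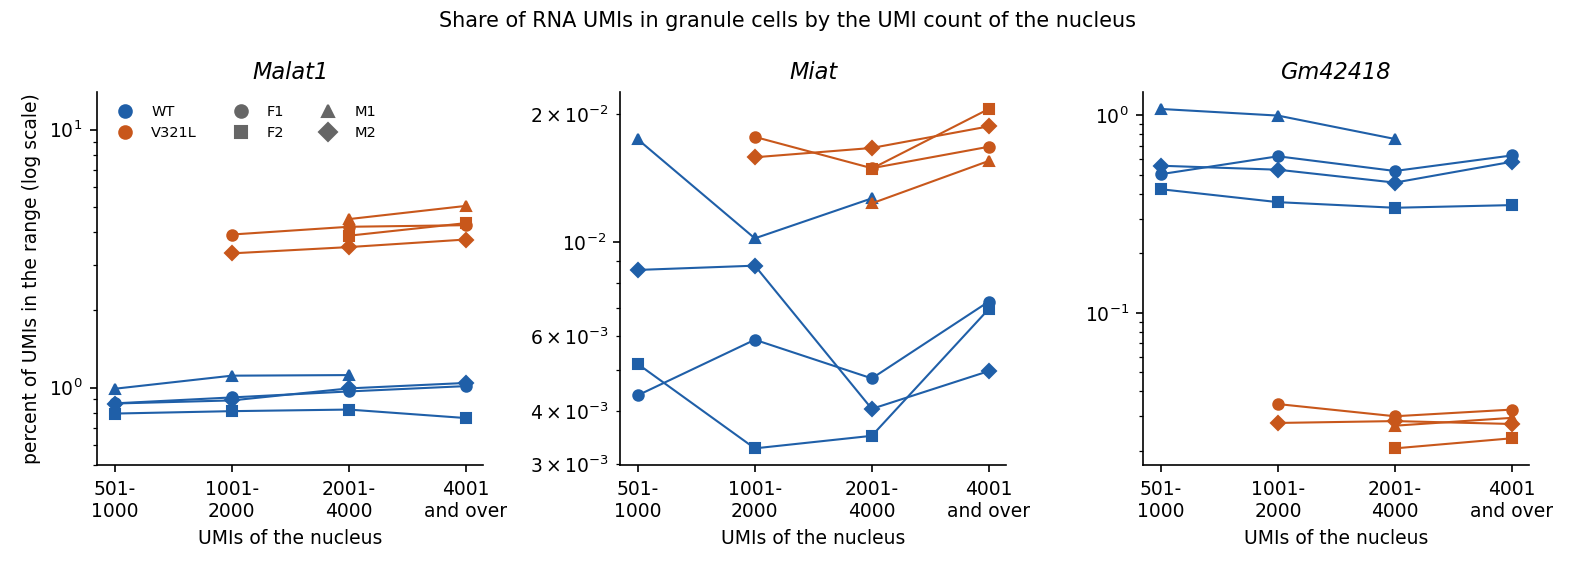
Percent of UMIs from *Malat1*, *Miat* and *Gm42418* in GCs (vertical, log scale) by the UMI count of the nucleus (horizontal), one line per mouse, blue for WT and orange for V321L. Lines of the genotypes lie apart for *Malat1* and *Gm42418* at every depth both groups filled, while for *Miat* the highest WT value at over 2000 to 4000 UMIs, 0.0127%, lies above the lowest V321L value, 0.0123%.

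Counting nuclei rather than molecules gave the same order. In GCs thinned to 1000 UMIs each, which left out 390 of 1569 WT and 17 of 1960 V321L GCs as too shallow, 92.4 to 100% of WT nuclei and 17.3 to 29.0% of V321L nuclei held a *Gm42418* UMI. Before thinning the shares were 95.0 to 99.6% and 59.9 to 70.7%. *Gm26917* was found in 21.5 to 30.1% of thinned WT GCs and 1.88 to 5% of thinned V321L GCs, and *Miat* in 3.89 to 11.9% and 13.1 to 17.3%. Every thinned V321L GC held a *Malat1* UMI, as did 99.8 to 100% of WT GCs. Nuclei in no gate, taken as a separate set, showed *Malat1* at 0.764 to 1.01% in WT and 3.58 to 4.70% in V321L, and *Gm42418* at 0.387 to 1.03% and 0.0215 to 0.0326%.

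*Malat1* differed between genotypes in every class with values in both. Its means over those classes spanned 0.802 to 1.36% in WT and 2.48 to 5.14% in V321L. Its means in WT and V321L were 0.955 and 4.24% in GCs, 0.992 and 3.69% in GABAergic neurons, 1.27 and 5.14% in excitatory neurons outside the GC gate, 1.13 and 4.51% in astrocytes or radial glia, and 1.36 and 5.09% in oligodendrocytes. Microglia had the lowest of these classes, 0.802% (n = 3) and 2.48% (n = 4). In V321L, where further classes reached 10 nuclei in a mouse, immature neurons were lower still, at 2.04 to 2.11% (n = 2). Set against GCs of the same mouse, microglia were lower in all 7 mice with at least 10 microglia, at 0.809 to 0.979 of the GC share in WT and 0.548 to 0.666 in V321L. Oligodendrocytes were higher in 7 of 8 mice, by 1.13 to 1.28 times in V321L. Neighbouring classes in the order of the means above overlapped between mice of each genotype, except microglia in V321L. Their highest value there, 2.811%, lay just below the lowest of GABAergic neurons, 2.813%. In WT, microglia (0.670 to 0.948%) overlapped GCs (0.805 to 1.07%).

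In both genotypes *Neat1* was highest in oligodendrocytes, followed by astrocytes or radial glia, among the classes with values in both. In oligodendrocytes it took 0.0241, 0.0318, 0.0283 and 0.0304% of UMIs in WT F1, F2, M1 and M2, from 7, 12, 4 and 14 UMIs, and 0.162, 0.211, 0.196 and 0.164% in V321L, from 280, 583, 282 and 188 UMIs. The V321L mean was 6.4 times the WT mean, a log2 difference of 2.68, and no mouse overlapped. That log2 difference was 3.66 with classes taken from clusters and 4.10 in nuclei thinned to 1000 UMIs, where few WT UMIs were left. The 132 WT oligodendrocytes in all, against 581 in V321L, make the WT values the less certain. In astrocytes or radial glia *Neat1* took 0.0117 to 0.0182% in WT and 0.0159 to 0.0281% in V321L, and here the genotypes overlapped. Microglia held 0.00365 to 0.0126% in V321L, from 2 to 13 UMIs, and 0 or 1 UMI a mouse in WT. Oligodendrocyte precursors of V321L held 0 or 1 UMI a mouse. Vascular cells of V321L, which are not glia, took 0.01908 to 0.02095% (n = 2), from 2 and 3 UMIs.

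Measured against GCs of the same V321L mouse, the *Neat1* share was 291 to 586 times higher in oligodendrocytes and 33.8 to 78.0 times higher in astrocytes or radial glia. WT GCs held no more than 3 *Neat1* UMIs a mouse, so the same ratio was not formed there, but the share was higher than in GCs in all 4 WT mice for both glial classes. At full depth 71.8 to 84.3% of V321L and 21.3 to 28.6% of WT oligodendrocytes held a *Neat1* UMI, with 1.28 to 1.90% and 0 to 0.581% of GCs. Median depths were 913 to 1299 UMIs in V321L and 654 to 844 in WT oligodendrocytes, and deeper in GCs as given above. Thinned to 1000 UMIs, which left out 96 of 132 WT and 230 of 581 V321L oligodendrocytes, the shares were 62.2 to 77.3% in V321L and 0 to 30.0% in WT (n = 3), against at most 0.730% of GCs.

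In V321L *Miat* was higher in neurons than in astrocytes or radial glia, oligodendrocytes and microglia. Its V321L means were 0.0168% in GCs, 0.0101% in GABAergic neurons, 0.0198% in other excitatory neurons and 0.00390% in astrocytes or radial glia. The WT means were 0.00729, 0.00393, 0.00649 and 0.00324%, and in WT the mice overlapped between GABAergic neurons and astrocytes or radial glia. It was lower in GABAergic neurons than in GCs of the same mouse in all 8 mice, at 0.314 to 0.839 of the GC share. Excitatory classes could not be put in order, since other excitatory neurons were above GCs in 4 of 4 V321L mice and in 1 of 4 WT mice. Oligodendrocytes held 0 or 1 *Miat* UMI per WT mouse and 0 to 3 per V321L mouse. WT microglia held none, and V321L microglia 0 to 3. Oligodendrocyte precursors of V321L took 0.00463 to 0.0117% (n = 4), from 1 to 5 UMIs a mouse, and overlapped GABAergic neurons of V321L. The order of neurons over glia thus did not extend to them. Immature neurons of V321L took 0.01385 and 0.04401% (n = 2), from 5 to 10 UMIs a mouse. The genotype difference seen in GCs was present in GABAergic neurons, at 0.00354 to 0.00418% in WT and 0.00902 to 0.0115% in V321L. All *Miat* shares of GABAergic neurons rest on 5 to 12 UMIs a mouse in WT and 16 to 27 in V321L. After thinning to 1000 UMIs, 1.96 to 3.64% of WT and 0 to 14.3% of V321L GABAergic neurons held a *Miat* UMI. These thinned ranges overlapped. In other excitatory neurons the difference was present too, at 0.00390 to 0.0109% in WT and 0.0163 to 0.0247% in V321L. In astrocytes or radial glia the ranges overlapped.

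**Figure D3:**
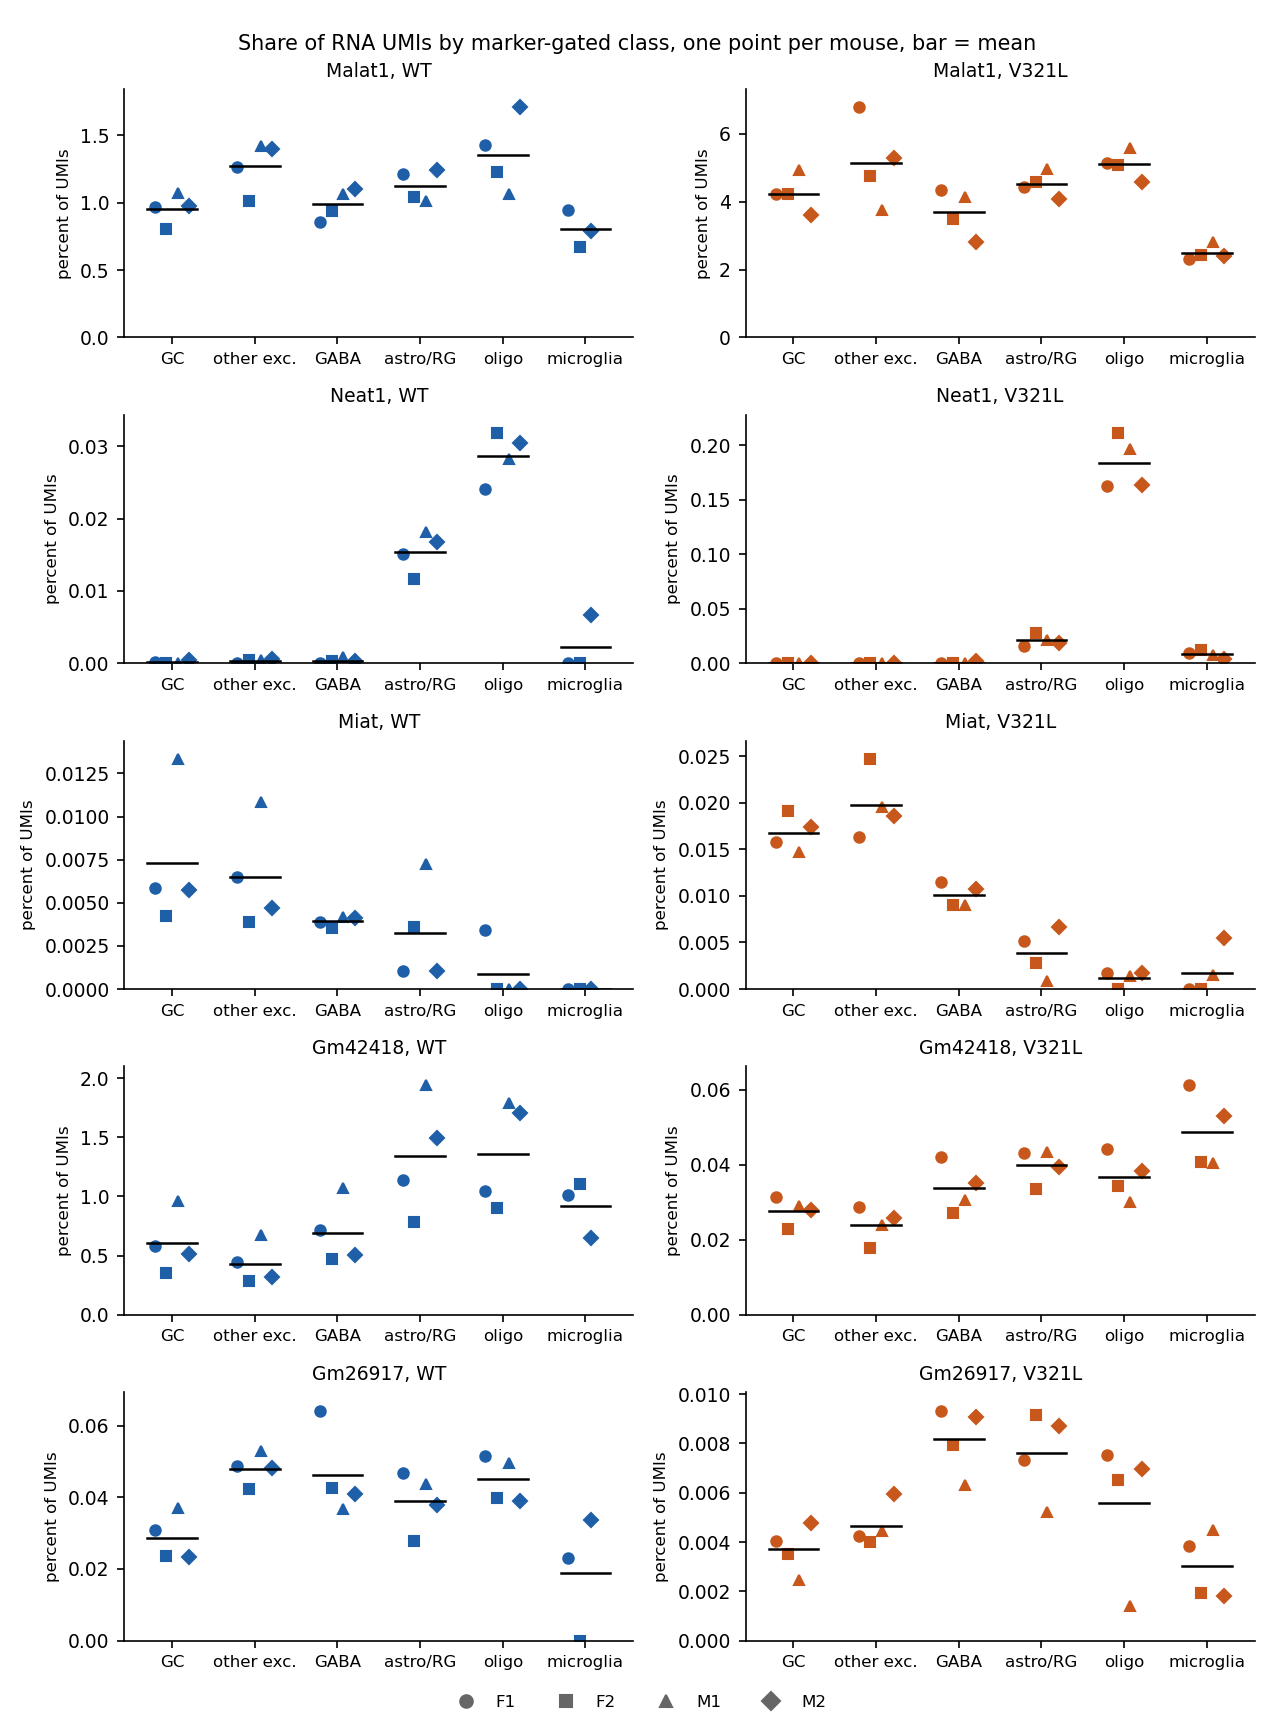
Percent of RNA UMIs from each of the 5 genes (rows) in 6 marker-gated classes (horizontal), WT left in blue and V321L right in orange, each panel with its own vertical scale, one symbol per mouse and a black bar at the mean. *Neat1* stands highest in oligodendrocytes (0.0241 to 0.0318% in WT, 0.162 to 0.211% in V321L). By means over these 6 classes, *Miat* is highest in excitatory neurons and *Malat1* lowest in microglia. *Gm42418* in WT is, by means, highest in oligodendrocytes and astrocytes or radial glia.

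*Gm42418* was lowest in excitatory neurons and higher in glia. In WT it took 0.357 to 0.961% of UMIs in GCs, 0.287 to 0.671% in other excitatory neurons, 0.785 to 1.94% in astrocytes or radial glia and 0.899 to 1.79% in oligodendrocytes. In V321L these were 0.0229 to 0.0313, 0.0177 to 0.0287, 0.0335 to 0.0434 and 0.0299 to 0.0441%. Other excitatory neurons were below GCs of the same mouse in 8 of 8 mice (0.623 to 0.923 of the GC share), and astrocytes or radial glia and oligodendrocytes were above them in 8 of 8 (1.38 to 2.91 times and 1.04 to 3.32 times). Oligodendrocytes were shallower than GCs, and the share of *Gm42418* rose toward poor barcodes in WT as shown above. The part of depth in the class order was not tested. The ratio of WT to V321L means was 21.7 in GCs and 37.1 in oligodendrocytes, a difference between classes that was not tested.

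*Gm26917* had a different class order. Other excitatory neurons were above GCs of the same mouse in 8 of 8 mice (1.05 to 2.05 times), where *Gm42418* was below in 8 of 8, and astrocytes or radial glia were above in 8 of 8 (1.17 to 2.59 times). GABAergic neurons were above GCs in 7 of 8 (0.996 to 2.55 times). In V321L they had the highest mean among classes with values in both genotypes, 0.00816%, from 14 to 22 UMIs a mouse. WT took 0.0234 to 0.0370% in GCs and 0.0422 to 0.0529% in other excitatory neurons, and V321L took 0.00248 to 0.00478% and 0.00401 to 0.00596%. Microglia held only 0 to 5 UMIs a mouse in either genotype. Oligodendrocytes held 7 to 18 UMIs in WT and 2 to 18 in V321L.

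Which genes followed each member over classes was read from Pearson's r of log2 CPM over 47 sums of a mouse and a class, centred within the mouse, among 7448 genes. These sums share libraries and depths, and r is given as a description. *Malat1* was followed most closely by *Gpm6b* (r = 0.82), *Ephb1* (0.81) and *Bicc1* (0.80), and *Neat1* by *Fnbp1* (0.88), *Lamp1* (0.87) and *Ppfibp2* (0.87). *Miat* went with *Sidt1* (0.94) and *Slc6a15* (0.91), a neutral amino acid transporter of neurons. *Gm42418* went with *AY036118* (0.92) and with the mitochondrially encoded *mt-Nd1* (0.91) and *mt-Nd4* (0.90), subunits of respiratory complex I. *Gm26917* instead went with the nuclear-encoded *Npepps* (0.92), an aminopeptidase, *Chd6* (0.90), a chromatin remodeller, and *Fyn* (0.89), a Src family kinase. The rRNA-like pair shared none of these leading genes.

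Sex was compared in GCs with genotype as a covariate. No difference between the 4 males and the 4 females passed the test for any member. The log2 difference of males from females in edgeR's quasi-likelihood fit was 0.05 (SE 0.157) for *Malat1*, 0.17 (SE 0.201) for *Miat*, 0.32 (SE 0.184) for *Gm42418* and -0.03 (SE 0.176) for *Gm26917*, with an adjusted p of 1 for each. None of the 4 members tested was called, none had an unadjusted p under 0.05, and DESeq2 called none, against 0.0609% of 9850 genes called. *Xist*, the noncoding RNA of the inactive X chromosome, had no UMI in GCs of the males and 916 to 3419 CPM in the females.

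The genotype difference was not found to depend on sex either. Its log2 change from females to males was -0.04 (SE 0.298) for *Malat1*, -0.78 (SE 0.395, unadjusted p = 0.0698 in edgeR) for *Miat*, -0.42 (SE 0.366) for *Gm42418* and -0.04 (SE 0.376) for *Gm26917*. No member was called by edgeR or DESeq2 and none had an unadjusted p under 0.05. Of all 9850 genes 0% were called by edgeR, 349 had an unadjusted p under 0.05, and DESeq2 called 0. With 2 mice for each sex and genotype, a p that misses the threshold does not show that the sexes were alike. In simulated data this fit recovered only 4.5% of 200 genes given a log2 change of 1, so it could miss most changes of that size.

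Accessibility near the annotated starts gave a second readout of the same nuclei. Peaks were called by the authors in each library. The window of a gene ran from its first to its last annotated start, with 1000 bases added on each side. Before that margin it spanned chr19:5796952-5802672 for *Malat1* and chr19:5828012-5845478 for *Neat1*, which is most of either gene. A gene was tested when every library had a peak in its window, which held for *Malat1*, *Neat1* and *Gm26917*. *Miat* had no such peak in V321L F1 and *Gm42418* had none in V321L F1 and F2. A region merged from peaks of all 8 libraries, chr19:5802153-5802935, covered the whole *Malat1* window printed above, and another began upstream, at chr19:5803184-5804089. *Neat1* likewise had a region over its start (chr19:5845384-5846272) and one upstream (chr19:5846424-5847313). The peaks at the rRNA-like locus were far larger, with 4639 to 8875 ATAC counts each over all barcodes against 104 to 1620 at *Malat1*, *Neat1* and *Miat*.

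*Malat1* RNA in V321L GCs was 4.44 times that of WT as a ratio of mean shares. After TMM scaling, as used for the ATAC counts, its RNA log2 difference was 1.76. No difference was found in accessibility near the start of *Malat1*. Its peaks held 6.03 to 10.7 of every 100000 ATAC counts in peaks in WT GCs and 5.78 to 10.4 in V321L GCs, with means of 8.27 ± 1.96 and 8.06 ± 2.15 (SD, n = 4 each). The log2 difference was -0.16 (SE 0.157), with an adjusted p of 0.914 by edgeR. *Neat1* differed by 0.50 (SE 0.217, unadjusted p = 0.0302, adjusted p = 0.794 by edgeR). This value rested on windows, since the upstream peak of *Neat1* was not counted in WT F2 and M2. A peak inside the gene (chr19:5841384-5842169) was counted in V321L M1 only. Over regions with a peak in all libraries the difference was 0.05. *Gm26917* differed by 0.70 (SE 0.357, adjusted p = 0.835 by edgeR), and by 0.24 over shared regions, where an additional peak of V321L M2 was not counted. Its peaks held 28.2 to 38.7 counts per 100000 in WT, and 75.3, 15.9, 24.3 and 134 in V321L F1, F2, M1 and M2, so that F2 and M1 lay below every WT mouse. Without V321L M2 the difference was 0.12. By edgeR 0% of 12923 genes were called, with 780 at an unadjusted p under 0.05, and DESeq2 called 3. None of the members was called by either tool, and of the 3 only *Neat1* had an unadjusted p under 0.05.

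Between classes, the starts of *Malat1* and *Neat1* were more accessible in glia than in GCs. In oligodendrocytes *Malat1* held 9.66 to 30.8 counts per 100000 in WT and 16.8 to 27.1 in V321L, with a mean over the 8 mice of 20.4 against 8.16 in GCs. The oligodendrocyte value was the higher in 8 of 8 mice, and the exact two-sided permutation test over mice gave p = 0.00781, the smallest it can give with 8 pairs. Here and below, this test used counts per 100000 ATAC counts in peaks, whereas edgeR scaled by counts in the gene windows. The share of all genes that differ in as many mice on the permutation scale is not given here. In edgeR with mouse as a block, the log2 difference was 0.87 (SE 0.171, adjusted p = 0.000192). With peaks within 500 bases, which leaves out the region upstream of *Malat1*, it was 0.52 with an adjusted p of 0.307 by edgeR. The *Malat1* call in oligodendrocytes was thus not kept over the start region alone. For *Neat1* it was 1.23 (SE 0.19, adjusted p = 6.76e-06), from 25.2 and 8.21 counts per 100000, with 7 of 8 mice higher. Over shared regions all 8 mice were higher, at 29.3 against 9.33. Both genes were called, against 24.4% of 12680 genes. *Gm26917*, at 64.1 against 47.7 counts per 100000, had a log2 difference of 0.14 (adjusted p = 0.64 by edgeR), while 7 of 8 mice were higher and the exact two-sided permutation test over mice gave p = 0.0234.

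Astrocytes or radial glia gave the same picture for *Malat1*, with 16.6 counts per 100000 against 8.16 in GCs and a log2 difference of 0.82 (SE 0.126, adjusted p = 1.30e-05 by edgeR). *Neat1* had 13.0 against 8.21 and a log2 difference of 0.49 (SE 0.14, adjusted p = 0.00872 by edgeR). Both were higher in 8 of 8 mice, and both were called, against 28.8% of 12640 genes. *Gm26917* had a log2 difference of 0.34 with an adjusted p of 0.0598 by edgeR, with 6 of 8 mice higher and an exact permutation p of 0.0312. It was called over shared regions (0.36, adjusted p = 0.0251 by edgeR), with no ATAC minimum, with classes by cluster, without WT M2 and without V321L F1. For *Neat1* the larger accessibility in oligodendrocytes went with the larger RNA share. For *Malat1* the RNA share in oligodendrocytes was 0.995 to 1.75 times that in GCs of the same mouse.

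*Miat* ran the other way, with the reservation of few counts. In the 7 mice with a peak, its start held a mean of 1.99 counts per 100000 in GCs, 1.36 in oligodendrocytes and 1.14 in astrocytes or radial glia. Astrocytes or radial glia were lower than GCs in 7 of 7 mice (exact two-sided permutation p = 0.0156, the smallest possible with 7 pairs). For oligodendrocytes the exact p was 0.344. *Gm42418*, with peaks in 6 mice, had 38.8 in GCs and 49.0 in oligodendrocytes (exact permutation p = 0.25).

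**Figure D4:**
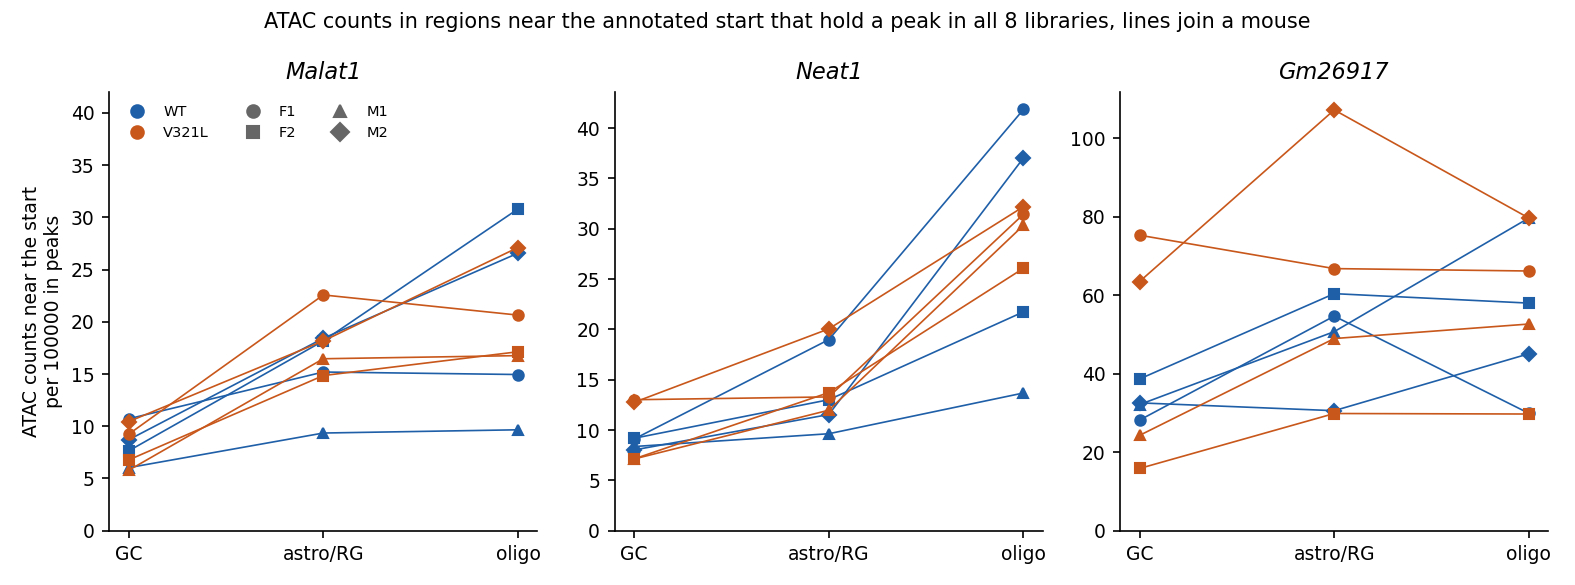
ATAC counts per 100000 counts in peaks (vertical, from 0) near the starts of *Malat1*, *Neat1* and *Gm26917* in GCs, astrocytes or radial glia and oligodendrocytes (horizontal), over regions with a peak in all 8 libraries, one line per mouse, blue for WT and orange for V321L. *Malat1* and *Neat1* rise from GCs to oligodendrocytes in all 8 mice, while WT and V321L GCs overlap for all 3 genes.

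Of 5 names listed for rows that carry rRNA-like sequence, 2 could be tested in GCs. Both were lower in V321L, against 27.6% of all genes lower, with a median log2 difference of -2.45 against 0.15 over all genes. *AY036118* stood at 898 to 2006 CPM in WT and 173 to 277 CPM in V321L (log2 difference -3.12, SE 0.205, adjusted p = 5.60e-09 by edgeR), and as it overlaps *Gm42418* the pair may share reads. *Lars2*, a mitochondrial leucyl-tRNA synthetase whose last exon holds an rRNA-like repeat, stood at 39.9 to 158 and 23.2 to 32.4 CPM (log2 difference -1.78, adjusted p = 3.00e-05 by edgeR). *Gm15564* was below the filter and overlapped between genotypes, at 3.37 to 12 CPM in WT and 2.81 to 5.05 CPM in V321L. The listed names *CT010467.1* and *Rn18s-rs5* were not in the files, and *Rn18s-rs5* is the RefSeq name of *Gm42418* itself.

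Of 19 genes of RNA polymerase I transcription and the nucleolus, 17 were tested, and 10 were higher in V321L, 1 lower and 6 not called, against 35.4% of all genes higher and 27.6% lower, with a median log2 difference of 0.93. After thinning to 1000 UMIs, 4 of them were called rather than 11. *Npm1*, a nucleolar histone chaperone, went from 16.9 to 24.0 CPM in WT to 58.1 to 111 CPM in V321L (1.58, adjusted p = 3.17e-05 by edgeR). *Ncl*, nucleolin, went from 31.2 to 69.7 CPM to 71.8 to 156 CPM (0.93, adjusted p = 0.00311 by edgeR). The one lower gene was *Taf1b*, a subunit of the polymerase I selectivity factor, at 53.2 to 87.9 and 48.5 to 53.2 CPM (-0.76, adjusted p = 0.000465 by edgeR), a call lost after thinning and with plain library sizes. Ribosomal protein transcripts also took a larger share of V321L GCs, as given above, and their part in this list was not tested.

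Of 20 genes for nuclear speckle and SR proteins, 8 were higher, 2 lower and 10 not called, against the same shares over all genes, with a median of 0.21. *Srrm2*, a core protein of speckles, stood at 152 to 212 CPM in WT and 319 to 381 CPM in V321L (0.66, adjusted p = 8.66e-05 by edgeR), and *Srpk2*, an SR protein kinase, had a log2 difference of -0.46 (adjusted p = 0.0023 by edgeR) although its CPM overlapped, at 239 to 295 and 226 to 285, and the call was lost after thinning, with no filter and with plain library sizes (-0.04). *Srsf11*, an SR protein, differed by 0.26 (adjusted p = 0.0678 by edgeR), at 176 to 218 CPM in WT and 272 to 328 CPM in V321L. It was called with no ATAC minimum, after thinning, with no filter, with plain library sizes (0.68) and without V321L M2. Of 16 genes for paraspeckle proteins, 3 were higher, 4 lower and 9 not called, with a median of 0.10, and with plain library sizes 12 were called rather than 7. *Sfpq*, which binds *Neat1*, differed by -0.31 (adjusted p = 0.037 by edgeR), but its CPM overlapped at 203 to 267 and 232 to 269. Its call was lost with plain library sizes (0.11), with doublets kept, after thinning, with no filter on low counts, with a replicate block and without any of 7 of the 8 mice, and it was kept without WT M1. *Cpsf6*, a cleavage factor subunit, fell by 0.68 on the log2 scale (adjusted p = 2.56e-05 by edgeR), from 240 to 272 CPM in WT to 211 to 217 CPM in V321L.

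Among 5 genes for splicing factors that bind *Miat*, 1 was higher, 2 lower and 2 not called, with a median of -0.01. *Qk* encodes quaking, an RNA-binding protein abundant in glia, and fell from 315 to 433 CPM in WT GCs to 194 to 210 CPM in V321L GCs (-1.31, adjusted p = 3.74e-07 by edgeR). The summed share of astrocyte markers in GCs was lower in V321L too, as given above, and its part in this value was not tested. *Celf1* differed by -0.51 (adjusted p = 0.000333 by edgeR), and by -0.10 with plain library sizes, where the call was lost. *Srsf1* differed by -0.01 (adjusted p = 0.936 by edgeR), with a positive sign of 0.40 under plain library sizes, where it was called (adjusted p = 0.022 by edgeR). Of the 9 genes that make or bind the 3′ end of *Malat1*, 5 could be tested, 3 were higher and 2 not called, against 35.4% higher over all genes, with a median of 0.79. The number called was 1 after thinning and without WT F2, and 5 with classes by cluster or no ATAC minimum. *Pop5*, an RNase P subunit, went from 6 to 21.2 CPM to 59.9 to 85.6 CPM (2.40, adjusted p = 1.06e-06 by edgeR). *Rpp30*, another subunit, went from 3.03 to 14.6 CPM to 21.8 to 28.5 CPM (0.79, adjusted p = 0.0206 by edgeR), a call lost without WT F2 or WT M1. *Mettl16*, which binds the triple helix, differed by 0.05 (adjusted p = 0.81 by edgeR), and by 0.48 with plain library sizes, where it was called.

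Of 16 other long noncoding RNAs listed, 14 were tested in GCs, and 5 were higher, 5 lower and 4 not called, against 35.4% of all genes higher and 27.6% lower, with a median log2 difference of 0.21. *Meg3*, a maternally expressed imprinted RNA, stood at 347 to 667 CPM in WT and 1143 to 1367 CPM in V321L (1.10, adjusted p = 5.59e-06 by edgeR). *Snhg14*, the paternally expressed host of small nucleolar RNAs, fell from 943 to 1137 CPM to 675 to 718 CPM (-0.99, adjusted p = 2.58e-06 by edgeR). *Xist* in females stood at 916 and 1004 CPM in WT and at 3385 and 3419 CPM in V321L, and over both sexes its call depended on the fit, with a log2 difference of 1.30 and an adjusted p of 0.398 by edgeR with genotype alone, and of 1.35 and 7.93e-06 with sex as a covariate.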

How the data were processed

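RNA and ATAC were measured in the same nuclei of 4 WT and 4 V321L mice, grouped by the genotype in the labels. The deposited matrices hold whole counts (UMIs per gene, ATAC counts per peak) that the authors made per library with Cell Ranger ARC on mm10. They are not normalized, reads in introns are included, and peaks were called in each library separately. The submitters' processing notes also name Seurat and Signac. All barcodes were used for the UMI ranges. As nuclei were kept barcodes with over 500 and under 8916.1 UMIs, over 250 and under 3307.5 genes, under 2.787% mitochondrial UMIs (limits after the study's methods) and at least 500 ATAC counts. Doublet scores over the mean plus 2 SD (Scrublet in scanpy 1.11.5) were removed, 3.21 to 4.31% of nuclei per library. A class needed at least 3 UMIs from at least 2 of its markers and 2 times the UMIs of any other list, and classes were used with at least 10 nuclei in a mouse.

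Counts were summed per mouse and class. Tests across genes were edgeR 4.0.16 quasi-likelihood fits (TMM, filterByExpr) in R 4.3.3 with Benjamini-Hochberg adjustment at 0.05. DESeq2 1.42.0, other scalings, filters, gates, windows and left-out mice were alternatives. Single values used exact permutation tests (scipy 1.17.1). Fits were also run on simulated data in which 200 genes differed by a log2 of 1. For RNA in GCs they recovered 63% of these genes by sex, 4.5% by genotype and sex together, and 47.5% by genotype. For promoters they recovered 82% by genotype in GCs, 41% in oligodendrocytes against GCs, and 67% in astrocytes or radial glia against GCs. Limits of a count of 0 (3 counts) cover counting error only. The members and lists were chosen with earlier results of these data known. Named genes are the members, the 3 with the highest mean CPM in each companion list, the 3 with the highest r with each member, and *Prox1*, *Xist*, mitochondrial and ribosomal protein genes as checks. Some genes that this rule names are not reported here. *AY036118* was also followed beyond its list because it overlaps *Gm42418*. Levels of different genes are shares of UMIs, not adjusted for length, and were not compared between genes.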

Additional observations from a re-analysis of the deposited data

Results flagged for a closer look

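Within groups of 4 mice, 6 of 119 groups of values held a mouse set apart from the others by more than Dixon's 95% critical value for 4 values, about as many as the 1 in 20 that chance gives. *Gm26917* in oligodendrocytes of V321L M1 took 0.00139% of UMIs, from 2 UMIs, below the 0.00652 to 0.00754% of the other V321L mice. *Miat* in oligodendrocytes of WT F1 took 0.00344%, from 1 UMI, with none in the other WT mice. *Neat1* in other excitatory neurons of V321L M2 took 0.000127%, also from 1 UMI, with none in the other V321L mice. *Miat* in barcodes of over 200 to 500 UMIs took 0.0102% in WT M1, from 34 UMIs, above 0.00136 to 0.00228% in the other WT libraries, and this mouse also had the highest *Miat* level of WT GCs. *Miat* in barcodes of 21 to 200 UMIs took 0.00205% in V321L F2, from 64 UMIs, above 0.00127 to 0.00141%. The start of *Neat1* in astrocytes or radial glia of V321L M2 held 20.1 ATAC counts per 100000, from 32 counts, above 12.8 to 13.7 in the other V321L mice.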

How the results depend on the processing

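Log2 differences are given throughout. The members' genotype differences in GCs kept their direction under every setting run. For *Neat1* in oligodendrocytes the genotype difference was 3.66 with classes by cluster and 4.10 after thinning. Thinned oligodendrocytes of WT F1, F2 and M2 held only 3, 1 and 0 *Neat1* UMIs, so the latter value is uncertain. The *Malat1* ratio of poor to rich barcodes was -0.41 in WT and -1.79 in V321L as a share of other UMIs, and -0.49 and -1.86 with a lowest range of 1 to 10 UMIs, and that of *Gm42418* in WT was 4.41 as a share of other UMIs. Thinning called 3380 genes by genotype (fewer UMIs entered), and without a filter on low counts 10 were called by sex. Promoters called by genotype were 3 by DESeq2, 2 with sex as a covariate, 1 within 500 bases and 0 to 4 with a mouse left out (1 without WT F2, 4 without V321L M1, 1 without V321L M2). Within 500 bases 1 member was called in oligodendrocytes, and *Malat1* was 0.52 (adjusted p = 0.307 by edgeR).

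The *Gm26917* start in oligodendrocytes was -0.0429 with a gate of 5 UMIs, 0.43 by exact permutation (p = 0.0234), and -0.0103 (without WT M1) to 0.25 with a mouse left out. In astrocytes or radial glia it was 0.35 with no ATAC minimum, 0.46 by cluster, 0.36 over shared regions (chosen after seeing the data), 0.50 by exact permutation (p = 0.0312) and 0.29 to 0.46 with a mouse left out, called without WT M2 (0.42) and without V321L F1 (0.46). Signs turned for *Gm26917* by sex (0.00631 by cluster, 0.0395 with library sizes) and by interaction (0.00378 by cluster, 0.48 thinned), *Sfpq* (0.11 with library sizes), *Srsf1* (0.0100, 0.0428, 0.0267, 0.16, 0.40 and 0.11 with no ATAC minimum, the stricter gate, clusters, thinning, library sizes and no filter) and *Mettl16* (-0.14, -0.00781 and -0.00833 by cluster, RLE and DESeq2). With a mouse left out, sex differences spanned -0.0485 to 0.31 for *Miat*, -0.18 to 0.10 for *Gm26917* and -0.0465 to 0.15 for *Malat1*, interactions -0.56 to 0.36 for *Gm26917*, -0.75 to 0.0503 for *Gm42418* and -0.30 to 0.18 for *Malat1*, and genotype differences -0.11 to 0.0141 for *Srsf1* and -0.0610 to 0.11 for *Mettl16*. The cause was not tested.

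Same-numbered mice of the genotypes share a sex, and the labels give no other link between them. Their deviations from the group means correlated at 0.0772, 0.203, -0.0621 and 0.0218 for F1, F2, M1 and M2 over 9850 genes. These correlations do not show whether such mice shared a batch. With mouse numbers as a replicate block, 6205 genes differed by genotype against 6202, and 2 promoters against 0. *Malat1* in GCs was then 2.15 as a log2 ratio of shares.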
